A study of Mus musculus with 23 samples.

Results

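The 4 subunits of the interferon receptors (Ifngr1, Ifngr2, Ifnar1 and Ifnar2) and the 3 Janus kinases that work with them (Jak1, Jak2 and Tyk2) were followed across the B16F10 melanoma RNA sequencing libraries. They were chosen by name from the known wiring of the pathway and make up 7 of the 47643 genes in the expression table, across all 23 libraries. The question was whether the capacity to sense interferon, as far as transcripts show it, differed between culture and tumor or with the guides against NR2F6, a nuclear receptor that acts as a transcription factor.

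B16F10 is a melanoma line of the C57BL/6 mouse. Its cells carried either no edit of Nr2f6 (WT control) or an NR2F6 knockout made with 1 of 2 guide RNAs, sg492 or sg495, and were sequenced as cultured cells, as bulk tumors grown under the skin of male C57BL/6 mice aged 6 to 8 weeks, and as tumor cells enriched from dissociated tumors by magnetic sorting (MACS). Each of these 9 groups had 2 libraries, 18 in all. The knockouts came from cells transfected with Cas9 protein and a fluorescent guide RNA and then sorted as a pool, so a knockout library can hold unedited cells. The other 5 libraries, IgG_Control (2 libraries) and anti-PD1 (3 libraries), are WT and carry no sample type in their labels, so they were tested only against each other, and their levels are set beside those of the other libraries as a description. Nothing in the labels says that the 2 libraries of a group came from separate animals or cultures. The p-values below therefore measure the spread between these libraries.

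Interferon-γ (IFN-γ) is made mainly by T cells and natural killer cells and signals through a receptor of ligand-binding IFNGR1 chains and IFNGR2 chains, on which JAK1 and JAK2 sit. Type I interferons, the IFN-α family and IFN-β, signal through IFNAR1 and IFNAR2, on which TYK2 and JAK1 sit. Both receptors activate STAT transcription factors, and the genes these induce include antigen presentation genes, chemokines and Cd274, which encodes PD-L1. JAK1 is needed by both receptors, and all of these kinases also serve receptors of other cytokines.

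In the mm10 mouse genome (GENCODE M21 gene models), 3 of the 4 subunit genes lie side by side on chromosome 16. The order there is Ifnar2 (ENSMUSG00000022971, chr16:91372783-91405589), the interleukin 10 receptor gene Il10rb, Ifnar1 (ENSMUSG00000022967, chr16:91485238-91507441) and Ifngr2 (ENSMUSG00000022965, chr16:91547072-91565623), all on the plus strand and within 193 kb. Ifngr1 (ENSMUSG00000020009) stands apart at chr10:19591949-19610229 on the plus strand. Of the kinase genes, Jak1 (ENSMUSG00000028530) lies at chr4:101152367-101265282 on the minus strand, Jak2 (ENSMUSG00000024789) at chr19:29251828-29313080 on the plus strand and Tyk2 (ENSMUSG00000032175) at chr9:21104068-21131243 on the minus strand. Ifnar2 overlaps a same-strand gene model, Gm21970, over 13869 bases, so reads could be split between them. Tyk2 overlaps an antisense gene, 1700084C06Rik, which was listed at no more than 0.81 TPM, the level of a gene scaled to transcript length and library total, in the 18 libraries.

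Of the IFN-γ receptor subunits, Ifngr1 was called between culture and bulk tumors and Ifngr2 was not. Of the type I subunits, Ifnar2 was the one called. The promoters of Ifngr1, Ifngr2 and Ifnar2 are shown for this reason. Each is the 250 bases before the RefSeq start in GRCm38.p6, plus strand, with capitals marking a GC box (GGGCGG, either strand) or, in Ifnar2, a GAS-like element (TTCNNNGAA), a motif of activated STAT dimers.
Ifngr1 (chr10:19591699-19591948): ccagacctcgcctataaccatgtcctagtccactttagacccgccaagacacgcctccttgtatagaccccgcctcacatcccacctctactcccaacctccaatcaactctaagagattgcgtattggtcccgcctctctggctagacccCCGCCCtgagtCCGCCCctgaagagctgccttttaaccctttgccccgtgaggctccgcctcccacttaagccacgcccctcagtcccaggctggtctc
Ifngr2 (chr16:91546809-91547058): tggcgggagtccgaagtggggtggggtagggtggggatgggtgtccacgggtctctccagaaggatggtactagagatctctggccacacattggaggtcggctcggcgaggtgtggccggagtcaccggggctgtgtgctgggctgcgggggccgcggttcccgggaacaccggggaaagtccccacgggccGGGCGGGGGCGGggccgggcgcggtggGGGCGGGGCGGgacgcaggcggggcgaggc
Ifnar2 (chr16:91372533-91372782): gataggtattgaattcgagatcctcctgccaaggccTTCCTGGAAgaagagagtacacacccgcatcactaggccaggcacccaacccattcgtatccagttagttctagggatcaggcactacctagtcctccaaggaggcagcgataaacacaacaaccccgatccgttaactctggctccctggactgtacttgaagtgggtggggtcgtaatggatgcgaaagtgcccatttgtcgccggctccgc

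The Ifngr2 window was 74.0% G and C, against 59.2% for Ifngr1, 54.0% for Ifnar2 and a median of 52.4% over 32851 mouse promoters. A GC box was found in 6 of the 7 promoters, all but that of Ifnar2, against 32.7% of all promoters. The GAS letters were found only in the Ifnar2 promoter among the 7, against 7.02% of all promoters. The core of the interferon-stimulated response element (GAAA, any 2 bases and GAAA again) was found in 0 of the 7 and in 2.98% of all promoters, and the nuclear receptor motif AGGTCA in 0 of the 7 and in 14.0%. All motifs were searched on both strands, GC boxes in the Ifngr2 window share letters with each other, and a match describes letters only.

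Features of the whole series touch these results. Leukocyte, fibroblast and endothelial transcripts were present in the bulk tumors and scarce in the sorted and cultured cells: the summed level of 10 leukocyte markers was 302 to 638 TPM in bulk tumors, with at most 1 marker at 0, against 6.82 to 15.1 TPM in sorted cells (3 to 6 markers at 0) and 2.66 to 6.36 TPM in cultured cells (6 or 7 at 0). The 7 melanocyte markers, among them Pmel and Tyrp1, summed to 14840 to 17844 TPM in all 18 libraries, bulk tumors included. Single markers under this sum moved in opposite directions. Mitf was at 134 to 174 TPM in cultured cells and 369 to 535 TPM in sorted cells. Mlana was at 2984 to 3312 TPM and 1322 to 1754 TPM in the same order. Nr2f6 itself was lower than in the controls in both sg495 libraries of each sample type, but in sorted cells the libraries labeled sg492 were at 19.8 and 25.7 TPM against 20.3 and 17.7 TPM in the controls, so that directions drawn from sg492 there rest on the label. TPM tables keep no read depth; 11925 to 13899 genes reached 1 TPM in each of the 18 libraries.

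All 7 genes were expressed in every library. In cultured cells (n = 6 libraries, mean ± SD) Jak1 was the highest at 57.7 ± 4.54 TPM, followed by Ifngr2 at 46.5 ± 5.05 TPM, Ifnar1 at 32.6 ± 1.85 TPM and Ifnar2 at 29.7 ± 4.09 TPM. Jak2 at 14.3 ± 1.16 TPM, Tyk2 at 13.2 ± 0.503 TPM and Ifngr1 at 12.9 ± 1.17 TPM were the lowest, and these 3 overlapped in range. TPM is a level per transcript length, so levels can be compared between genes. Jak1 and Ifngr2, and Ifngr2 and Ifnar1, did not overlap in culture, while Ifnar1 and Ifnar2 did. The chain that binds IFN-γ was thus the lowest of the 4 receptor subunits in culture, and its partner Ifngr2 was the highest.

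In the tumors Ifngr1 moved up in this order. In sorted cells the order by median was Jak1, Ifngr2, Ifnar2, Ifnar1 and Ifngr1, followed by Jak2 and Tyk2, which could not be ordered (Jak2 the higher in 3 of 6 libraries). Ifnar2 stood above Ifnar1, and Ifnar1 above Ifngr1, with no overlap, while Ifngr1 and Jak2 overlapped, with Ifngr1 the higher in 5 of 6. In bulk tumors Jak1 (50.2 ± 3.21 TPM) and Ifngr2 (50.3 ± 4.76 TPM) could not be ordered, with Jak1 the higher in 2 of 6 libraries, and Ifngr1 lay between Ifnar1 and Jak2 with no overlap on either side. The summed level of the 4 subunits was 105 to 133 TPM in cultured cells, 118 to 127 TPM in sorted cells and 146 to 166 TPM in bulk tumors, so that only the bulk tumors stood clear. The summed level of the 3 kinases overlapped in all sample types, at 78.7 to 94.4 TPM, 69.7 to 84.1 TPM and 70.4 to 89.2 TPM in the same order.

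**Figure D1:**
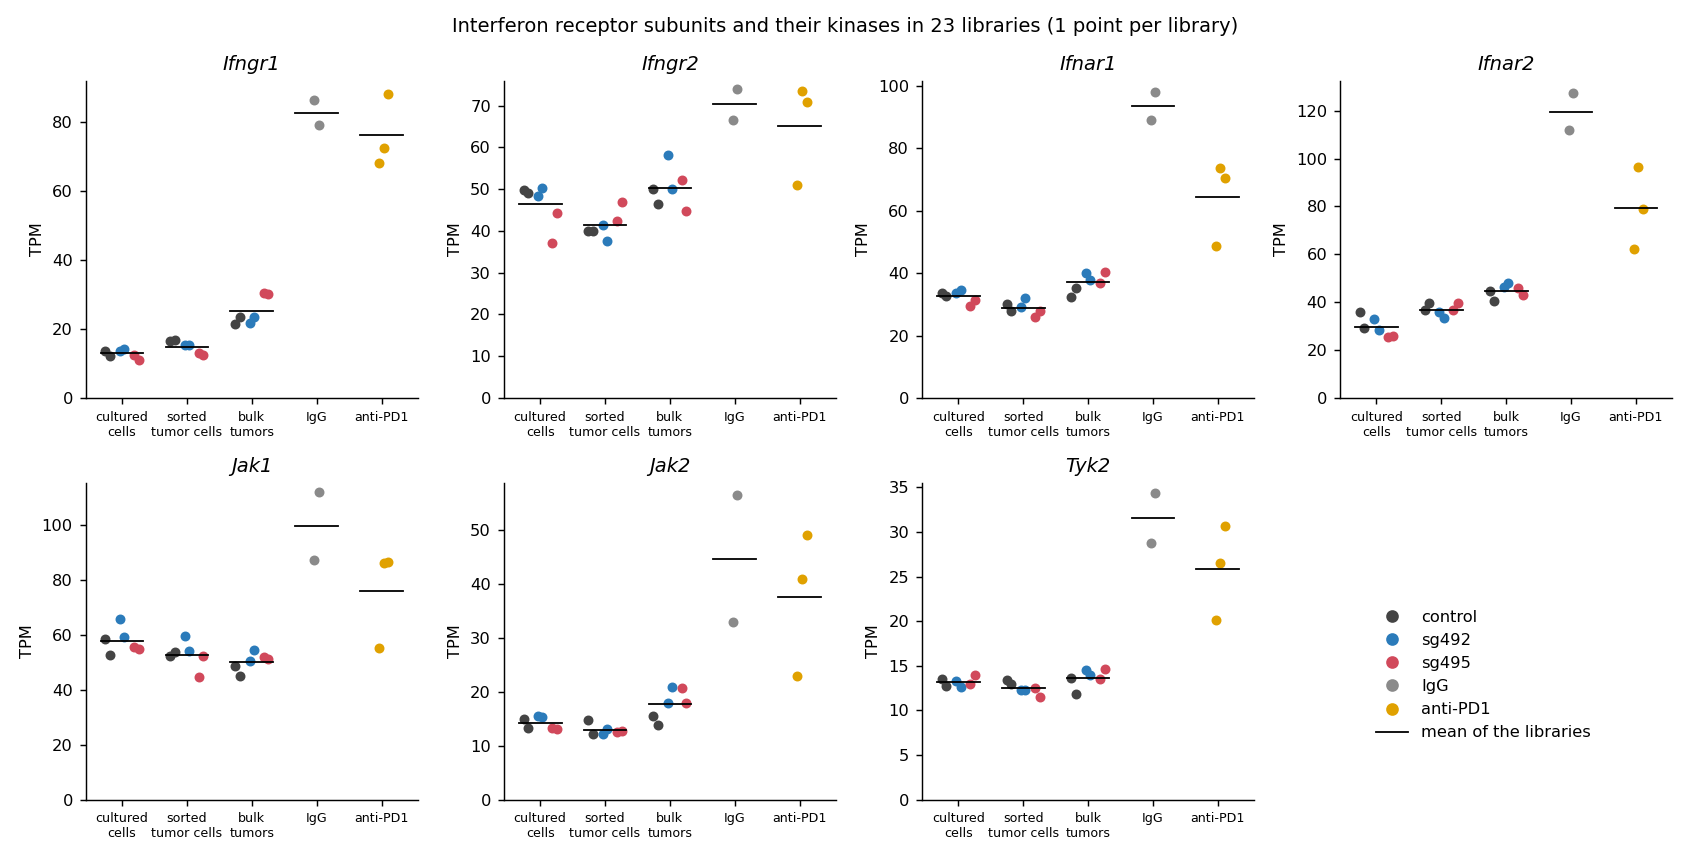
Level of each of the 7 genes in every library (TPM, vertical axis), by sample type and guide, with the IgG_Control and anti-PD1 libraries on the right. Points are single libraries and bars are means; Ifngr1 lies between 11.1 and 16.7 TPM in all cultured and sorted libraries and between 21.5 and 30.4 TPM in bulk tumors.

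Of the 7 genes Ifngr1 differed most between cultured cells and bulk tumors. It ranged from 11.1 to 14.2 TPM in cultured cells (median 13.1), from 12.5 to 16.7 TPM in sorted cells (median 15.4) and from 21.5 to 30.4 TPM in bulk tumors (median 23.6). All 6 bulk libraries lay above all 12 others, while sorted and cultured cells overlapped. On the log2(TPM + 1) scale, bulk tumors were above cultured cells by 0.90 (SE 0.05, 95% interval 0.79 to 1.01, 1.87-fold, limma adjusted p = 6.39e-09) and above sorted cells by 0.71 (SE 0.05, 95% interval 0.60 to 0.81, 1.63-fold, adjusted p = 1.08e-07). Sorted cells were above cultured cells by 0.19 (1.14-fold, adjusted p = 0.00405), below the 1.5-fold that a call required beside an adjusted p under 0.05. With the control libraries alone the differences of the bulk tumors were 0.75 from cultured cells and 0.42 from sorted cells, and the second (adjusted p = 0.00311) then fell short of 1.5-fold.

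Ifngr2, the signaling chain of the same receptor, showed no such rise. Its range was 37.2 to 50.2 TPM in cultured cells, 37.5 to 47.0 TPM in sorted cells and 44.7 to 58.2 TPM in bulk tumors, and all 3 overlapped. The log2 difference was 0.11 for bulk tumors against cultured cells (adjusted p = 0.117), 0.27 against sorted cells (adjusted p = 0.00207) and -0.16 for sorted against cultured cells (adjusted p = 0.0300), none of them 1.5-fold. The expression of Ifngr1 relative to Ifngr2 therefore shifted. The ratio had a median of 0.279 in cultured cells (0.250 to 0.340), 0.391 in sorted cells (0.265 to 0.418) and 0.489 in bulk tumors (0.374 to 0.676).

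In an exact 2-sided permutation test over libraries, 6 against 6, the log2 ratio was 0.79 higher in bulk tumors than in cultured cells (p = 0.00216, the smallest this design allows; adjusted p = 0.00649 over the 12 ratio tests). It was 0.43 higher in bulk tumors than in sorted cells (exact p = 0.0195, adjusted p = 0.0334) and 0.35 higher in sorted than in cultured cells (exact p = 0.0238, adjusted p = 0.0346). Both of these smaller shifts depended on the set of libraries: the adjusted p was between 0.0519 and 0.0693 in 9 of the 12 fits without 1 library for sorted against cultured cells, and between 0.0519 and 0.0594 in 6 of 12 for bulk tumors against sorted cells. These tests pooled the guides, among which the shifts were unequal. Control ratios were 0.429 and 0.508 in bulk tumors against 0.413 and 0.418 in sorted cells. With sg492 they were 0.374 and 0.470 against 0.375 and 0.408, and with sg495 0.582 and 0.676 against 0.310 and 0.265. The sorted sg495 libraries lay within the range of the cultured cells, and the other sorted libraries above it.

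Of the type I receptor, Ifnar2 was called higher in bulk tumors than in cultured cells, and Ifnar1 was called in no comparison of sample types. Ifnar2 ranged from 25.5 to 36.0 TPM in cultured cells (median 28.8), from 33.5 to 39.5 TPM in sorted cells (median 36.8) and from 40.6 to 48.2 TPM in bulk tumors (median 45.4). The bulk tumors lay above all other libraries, and sorted cells overlapped cultured cells through 1 control library of the culture at 36.0 TPM. The log2 difference was 0.59 for bulk tumors against cultured cells (SE 0.06, 95% interval 0.46 to 0.71, 1.5-fold, adjusted p = 1.83e-06), 0.27 against sorted cells (adjusted p = 0.00179) and 0.32 for sorted against cultured cells (SE 0.06, 1.25-fold, adjusted p = 0.000321). The first sat at the 1.5-fold line and fell under it in several alternatives, for example at 0.38 with control libraries alone and at 0.45 with the TPM of Gm21970 added (adjusted p = 0.000458). Gm21970 was listed at 1.20 to 16.7 TPM in the 18 libraries.

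Ifnar1 had a range of 29.6 to 34.6 TPM in cultured cells, 26.1 to 32.1 TPM in sorted cells and 32.5 to 40.4 TPM in bulk tumors. Bulk tumors lay above all sorted cells and overlapped cultured cells. The log2 difference was 0.18 for bulk tumors against cultured cells (adjusted p = 0.00310), 0.35 against sorted cells (adjusted p = 2.80e-05) and -0.17 for sorted against cultured cells (adjusted p = 0.00446). The ratio of Ifnar1 to Ifnar2 fell from a median of 1.13 in cultured cells (0.932 to 1.23) to 0.762 in sorted cells (0.707 to 0.960) and 0.834 in bulk tumors (0.728 to 0.940). The log2 ratio differed by -0.49 between sorted and cultured cells and by -0.40 between bulk tumors and cultured cells (exact 2-sided permutation p = 0.00433 for both, adjusted p = 0.00866). Between bulk tumors and sorted cells it differed by 0.08 (exact p = 0.374, adjusted p = 0.449). The ratio was thus lower than in culture in both kinds of tumor sample. Its level and the size of the fall depend on how reads were split between Ifnar2 and Gm21970. With Gm21970 added, Ifnar2 was at 34.1 to 46.2 TPM in cultured cells, 37.0 to 53.3 TPM in sorted cells and 50.1 to 59.35 TPM in bulk tumors. The ratio was not tested in that form.

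The kinases stayed within 1.5-fold in every comparison of sample types. Jak2, which acts with the IFNGR2 chain, ranged from 13.1 to 15.6 TPM in cultured cells, 12.1 to 14.7 TPM in sorted cells and 13.8 to 21.0 TPM in bulk tumors, with overlap throughout. It was 0.42 higher on the log2 scale in bulk tumors than in sorted cells (SE 0.07, 1.34-fold, adjusted p = 0.000162) and 0.29 higher than in cultured cells (adjusted p = 0.00186). Jak1 ranged from 52.7 to 65.6 TPM in cultured cells, 44.6 to 59.6 TPM in sorted cells and 44.8 to 54.3 TPM in bulk tumors. Its log2 difference was -0.20 for bulk tumors against cultured cells (adjusted p = 0.00433), -0.13 for sorted against cultured cells (adjusted p = 0.0353) and -0.07 for bulk tumors against sorted cells (adjusted p = 0.289). Tyk2 stayed between 11.5 and 14.6 TPM in all 18 libraries, and none of its differences reached an adjusted p under 0.05.

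The balance of the kinases moved in the bulk tumors and not in the sorted cells. Jak1 was at a median of 4.07 times Jak2 in cultured cells (3.88 to 4.21) and 4.09 times in sorted cells (3.55 to 4.86), but at 2.82 times in bulk tumors (2.51 to 3.25), with no overlap between the bulk tumors and the others. The log2 ratio was 0.49 lower in bulk tumors than in either (exact permutation p = 0.00216, adjusted p = 0.00649) and differed by 0.0012 between sorted and cultured cells (exact p = 0.987). Jak1 relative to Tyk2 was 0.24 lower on the log2 scale in bulk tumors than in cultured cells (exact p = 0.00216, adjusted p = 0.00649) and 0.18 lower than in sorted cells (exact p = 0.0260, adjusted p = 0.0346), the latter with an adjusted p between 0.0519 and 0.0693 in 9 of 12 fits without 1 library.

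**Figure D2:**
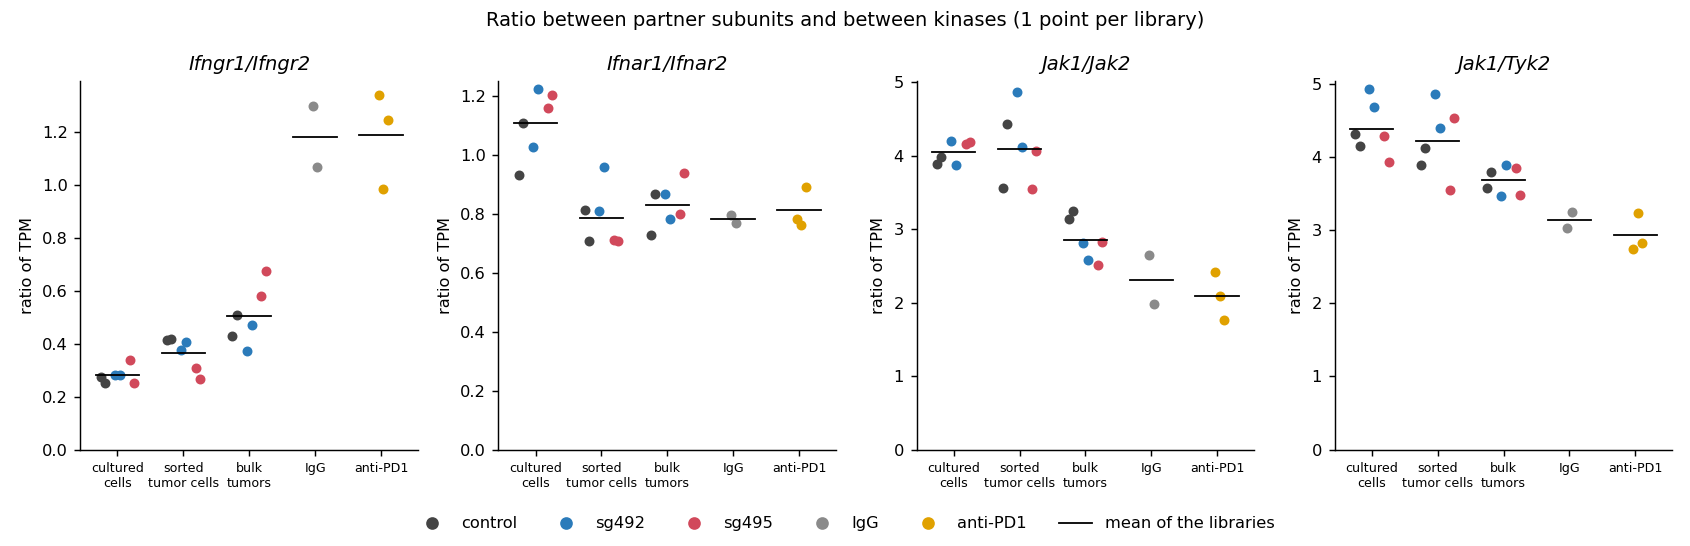
Ratio within each library of Ifngr1 to Ifngr2, Ifnar1 to Ifnar2, Jak1 to Jak2 and Jak1 to Tyk2 (ratio of TPM, linear vertical axis) by sample type, with IgG_Control and anti-PD1 on the right; points are libraries and bars are means. Of the 3 sample types Ifngr1 to Ifngr2 is highest in bulk tumors (median 0.489), and Ifnar1 to Ifnar2 is lower in both kinds of tumor sample (medians 0.762 and 0.834) than in culture (1.13).

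By the rule of 1.5-fold and an adjusted p under 0.05, 2 of the 7 genes, Ifngr1 and Ifnar2, were called higher in bulk tumors than in cultured cells. The background is large: 19.8% of the 13152 genes tested were called in either direction and 15.8% as higher. In bulk tumors against sorted cells 1 of 7, Ifngr1, was called, against 13.6% of all genes and 9.26% as higher. All 6 bulk libraries lay above all 6 cultured libraries for Ifngr1 and Ifnar2, as for 20.9% of all genes, and above all 6 sorted libraries for these and Ifnar1, as for 14.2%. In sorted against cultured cells 0 of 7 were called by limma, against 23.6%. With an adjusted p under 0.05 and no limit of fold, 5 of 7 passed in each of these comparisons, and 60.7%, 49.9% and 66.5% of all genes did. In sorted against cultured cells 5 of 7 also had an unadjusted p under 0.05. That count is a description only, as the share of all genes at the unadjusted level is not reported here. The median log2 difference over the 7 was -0.13 in sorted against cultured cells, 0.18 in bulk tumors against cultured cells and 0.27 in bulk tumors against sorted cells, and over all genes tested it was -0.0025, 0.02 and 0.05. Leukocyte, fibroblast and endothelial markers rose with Ifngr1, Ifnar2 and Jak2 in the bulk tumors. Their part in these differences was not tested, and in bulk tissue fewer cells of a type and less RNA per cell cannot be told apart. In the sorted cells, where leukocyte markers summed to at most 15.1 TPM, Ifngr1 reached no more than 16.7 TPM.

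**Figure D3:**
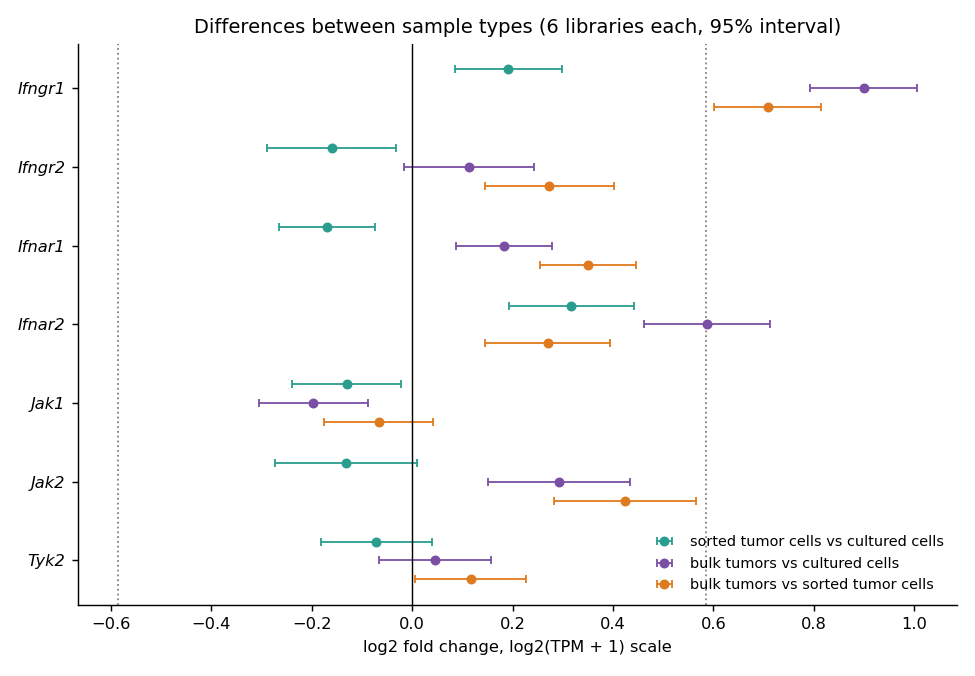
Log2 difference in TPM + 1 between sample types for each of the 7 genes, with 95% intervals; dotted lines mark 1.5-fold. Ifngr1 lies past the line in bulk tumors against both cultured (0.90) and sorted cells (0.71), and no gene does so in sorted against cultured cells.

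No guide changed any of the 7 genes by the rule: 0 of 7 were called by limma for either guide in any sample type. The background was also low for sg492, at 0% of genes in bulk tumors, 0.0388% in sorted cells and 0.05% in cultured cells, whereas for sg495 it was 0.0293%, 0.899% and 2.77%. At an unadjusted p under 0.05 the members were 1 for sg492 and 2 for sg495 in bulk tumors, 0 and 1 in sorted cells, and 0 and 2 in cultured cells. The share of all genes at that unadjusted level is not reported here, so these counts are a description only. The 95% intervals of all these log2 differences lay between -0.60 and 0.69, so that a change of more than about that size was outside every interval, and smaller changes could not be resolved with 2 libraries a group. The guides share their control libraries, so their differences from control are not independent of each other.

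In bulk tumors and sorted cells the largest differences with sg495 were in Ifngr1, and they ran in opposite directions in bulk tumors and sorted cells. In bulk tumors Ifngr1 was at 30.4 and 30.2 TPM with sg495, against 21.5 and 23.6 TPM in the controls and 21.8 and 23.6 TPM with sg492. In sorted cells it was at 13.1 and 12.5 TPM with sg495, against 16.6 and 16.7 TPM in the controls and 15.5 and 15.3 TPM with sg492. In cultured cells it was at 12.6 and 11.1 TPM with sg495, against 13.8 and 12.3 TPM in the controls and 13.6 and 14.2 TPM with sg492. The sg495 libraries thus lay above both controls in bulk tumors and below both in sorted cells, and overlapped them in culture.

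The log2 difference of Ifngr1 for sg495 was 0.41 in bulk tumors (SE 0.09, 95% interval 0.19 to 0.63, adjusted p = 0.113) and -0.35 in sorted cells (SE 0.10, 95% interval -0.60 to -0.11, adjusted p = 0.187). In a fit over all 18 libraries, which share 1 estimate of the spread, the adjusted p was 0.0164 and 0.0237, with both still under 1.5-fold. The difference between these effects, a comparison added after the values were seen, was 0.77 (SE 0.12, 95% interval 0.50 to 1.03, 1.70-fold, adjusted p = 0.0365), which passed the rule, as did 0.122% of all genes. It rests on few libraries: the adjusted p ranged from 0.0110 to 0.155 over 25 alternatives and was under 0.05 in 10 of them. Against the sg495 effect in cultured cells, that in bulk tumors was 0.54 higher (SE 0.12, 95% interval 0.28 to 0.80, adjusted p = 0.0414), below 1.5-fold, where 1.76% of all genes were called with the fold and 2.25% without it, and its adjusted p was under 0.05 in 9 of 25 alternatives (0.0315 to 0.169). The bulk tumors with sg495 also had the highest leukocyte marker sums, 577 and 638 TPM against 302 to 526 TPM in the other bulk tumors, and fibroblast marker sums of 550 and 956 TPM against 340 and 403 TPM in the controls. The sg492 bulk tumors had fibroblast marker sums of 460 and 550 TPM, with Ifngr1 at 21.8 and 23.6 TPM. Whether these cells carried the difference in Ifngr1 was not tested.

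**Figure D4:**
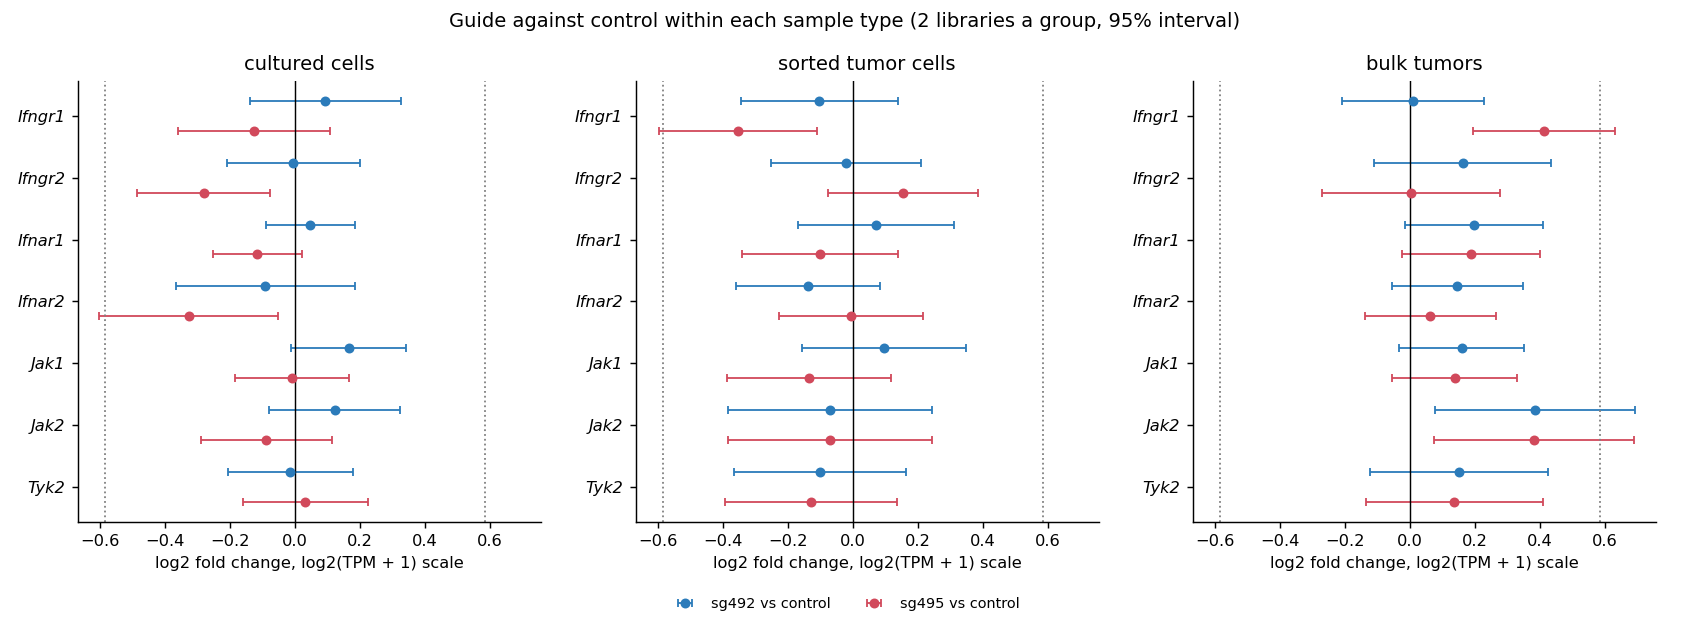
Log2 difference in TPM + 1 from the control libraries for sg492 and sg495 in bulk tumors, sorted cells and cultured cells, with 95% intervals; dotted lines mark 1.5-fold. For sg495, Ifngr1 is above 0 in bulk tumors (0.41) and below 0 in sorted cells (-0.35).

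For the other members the pattern varied by guide and sample type. In bulk tumors 6 of 7 (all but Ifngr1) were above both controls in both sg492 libraries, and 4 of 7 (Ifngr1, Ifnar1, Jak1 and Jak2) in both sg495 libraries, where 31.1% and 31.6% of all genes were. Jak2 was at 17.9 and 21.0 TPM with sg492 and at 20.7 and 18.04 TPM with sg495, against 15.5 and 13.8 TPM in the controls, a log2 difference of 0.38 for each guide (adjusted p = 0.518 and 0.226). In sorted cells 4 of 7 (Ifngr1, Ifnar1, Jak1 and Tyk2) were below both controls with sg495, against 31.5% of genes, and 3 of 7 (Ifngr1, Ifnar2 and Tyk2) with sg492, against 20.0%. Ifngr2 was the member above both controls with sg495 there (17.9% of genes), and Jak1 that with sg492 (20.4%).

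In cultured cells 3 of 7 (Ifngr2, Ifnar1 and Ifnar2) were below both controls with sg495, against 28.9% of genes, and 3 of 7 (Ifnar1, Jak1 and Jak2) above both with sg492, against 27.2%. Ifngr2 was at 37.2 and 44.2 TPM with sg495, against 49.8 and 49.1 TPM in the controls (log2 difference -0.28, adjusted p = 0.0871). Ifnar2 was at 25.5 and 26.0 TPM against 36.0 and 29.4 TPM (log2 difference -0.33, adjusted p = 0.125). These subunits, and Ifnar1, were at their lowest of the 6 cultures in the sg495 libraries, by amounts that did not pass the test. The sg495 effect did not differ between sorted and cultured cells by the rule for any member (0 of 7 by limma, against 2.51% of all genes called). The difference for Ifngr2 was 0.44 (limma adjusted p = 0.124), and 2 of 7 had an unadjusted p under 0.05. For sg492 the effect differed between sample types for 0 of 7 in each of the 3 pairs by limma. Of all genes 0.0228% were called between bulk tumors and sorted cells, 0.0304% between sorted and cultured cells and 0% between bulk tumors and cultured cells. At an unadjusted p under 0.05 there was 1 of 7 between bulk tumors and sorted cells, and 0 in the others. The unadjusted counts for both guides are a description only, as the share of all genes at that level is not reported here.

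Around the receptors, the ligands were scarce in the 18 libraries, and the genes downstream moved far more than the receptors did. Of the 21 interferon ligand genes, 0 reached the mean of 1 TPM needed for a test in the 18 libraries. The summed level of these 21 was 0.33 to 1.71 TPM in bulk tumors. In the IgG_Control libraries it was 14.05 and 26.4 TPM, and with anti-PD1 0.78, 19.04 and 52.44 TPM. Ifng, the ligand of Ifngr1, was listed at 0 in all cultured libraries, at no more than 0.07 TPM in sorted cells and at 0.18 to 1.14 TPM in bulk tumors. The type III interferon receptor chain Il10rb, which neighbors Ifnar2, was 0.45 higher on the log2 scale in bulk tumors than in cultured cells (adjusted p = 3.08e-05), also below 1.5-fold.

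The transducers Irf9 and Stat3 rose in both kinds of tumor sample, and Stat2 in bulk tumors. In bulk tumors against cultured cells, where 15.8% of all genes were called higher, Irf9, a DNA-binding subunit of the type I interferon complex, was called higher with a log2 difference of 2.37, Stat2, its partner there, with 1.52 and Stat3 with 1.33. In sorted against cultured cells, where 14.6% of all genes were called higher, Irf9 at 1.34 and Stat3 at 0.96 were called higher, and Stat2 stayed below 1.5-fold at 0.39. With sg495 in sorted cells Irf9 was called higher at 1.55 (adjusted p = 0.0392) and Stat3 at 0.94 (adjusted p = 0.0465), while none of the 7 receptor and kinase genes was called in that comparison.

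Of 18 interferon-stimulated targets, 18 were called higher in bulk tumors than in cultured cells, against 15.8% of all genes, and 15 in sorted than in cultured cells, against 14.6%, all but Irf1, Cxcl9 and Mx1. The immunoproteasome subunit Psmb8 was 5.85 higher on the log2 scale in bulk tumors than in cultured cells and 2.44 higher in sorted than in cultured cells, and B2m, the light chain of MHC class I, 2.64 and 1.32. With sg495 in sorted cells 11 of the 16 targets tested were called higher, against 0.605% of all genes, among them the GTPase gene Igtp at 5.10 (adjusted p = 0.0181) and Irf1 at 3.57 (adjusted p = 0.0167). The mean log2(TPM + 1) of the targets was 4.95 and 4.79 in the 2 sorted sg495 libraries against 1.91 to 2.81 in the other sorted libraries. The leukocyte markers summed to 10.9 and 15.1 TPM in these sg495 libraries, with 3 and 5 of 10 at 0, and to 6.82 to 9.83 TPM in the other sorted libraries, with 5 or 6 at 0, and the part of such cells in the target levels was not tested. The mean log2(TPM + 1) of the 4 receptor subunits was 4.81 to 4.92 over all 6 sorted libraries. The targets ranged from 1.45 to 1.69 in cultured cells, where the subunits were at 4.67 to 4.97.

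**Figure D5:**
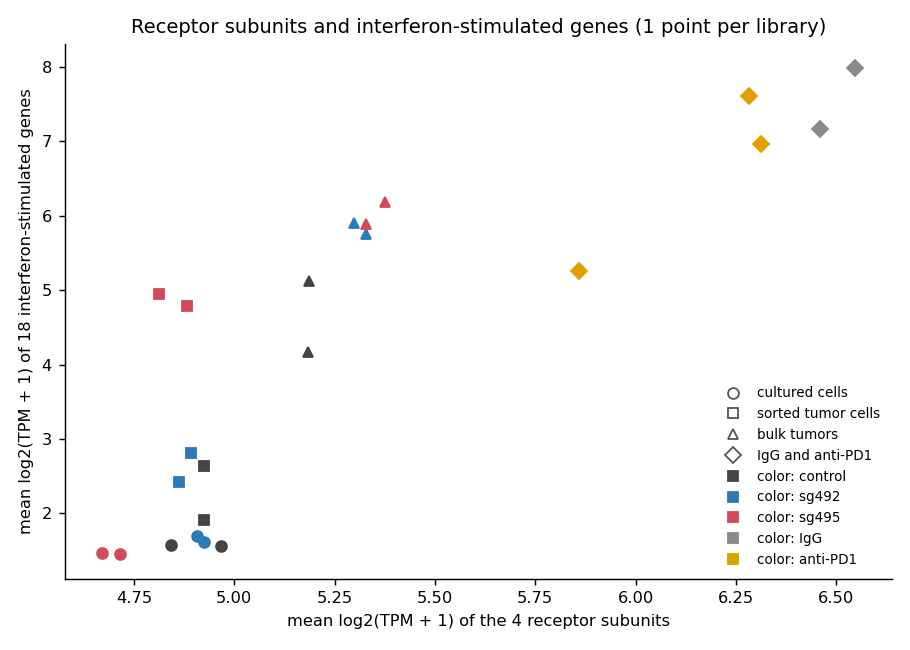
Mean log2(TPM + 1) of the 4 receptor subunits (horizontal axis) against that of the 18 interferon-stimulated targets (vertical axis), 1 point per library. Sorted libraries span 1.91 to 4.95 in the targets within 4.81 to 4.92 in the receptors, and bulk, anti-PD1 and IgG_Control libraries lie higher in the receptors, at 5.18 and above.

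Some inhibitors of the receptors rose in the tumors. Of 9, 4 were called higher in bulk tumors than in cultured cells, against 15.8% of all genes, with log2 differences of 2.96 for Usp18, which binds IFNAR2 and blocks type I signaling, 1.91 for Socs1, which inhibits the Janus kinases, 1.83 for Socs3 and 1.76 for the phosphatase gene Ptpn6. In sorted against cultured cells 3 of 9 were called higher, against 14.6% of all genes, at 1.52 for Usp18, 1.20 for Socs3 and 0.91 for Ptpn6, while Socs1 was at 0.18 (adjusted p = 0.248). Ptpn6 is also a gene of leukocytes. Of a list of other receptors that use these kinases, with Jak3 added, 8 of the 10 genes tested were called higher in bulk tumors than in cultured cells, against 15.8% of all genes, and 2 of 10 in sorted than in cultured cells, against 14.6%. Those 2 were Il2rg, the common γ chain, at 1.99 and the kinase gene Jak3 itself at 0.97.

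The IgG_Control libraries held all 7 genes above each of the 18 other WT and knockout libraries, and so did the anti-PD1 libraries except for Ifngr2 and Jak1 in replicate 1. The share of all genes that lay above all 18 is not reported here for either set. Ifnar2 was the highest in IgG_Control at 112 and 127 TPM, and Ifngr1 was at 86.4 and 79.1 TPM there and at 68.3, 72.5 and 88.1 TPM with anti-PD1. All 7 genes lay above every bulk tumor library in both IgG_Control libraries, as did 20.8% of all genes. These libraries differ from the bulk tumors in makeup: the leukocyte markers summed to 4907 to 7454 TPM and the melanocyte markers to 1663 to 5015 TPM, and their sample type is not given, so no fold was drawn between the sets. Within them the ratio of Ifngr1 to Ifngr2 was 0.987 to 1.34, above every one of the 18 other libraries.

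With anti-PD1, an antibody against the T cell checkpoint receptor PD-1, all 7 genes had lower means than with IgG_Control, and 0 of 7 were called by limma, as were 0% of the 13418 genes tested (964 of them, and 1 of the 7, had an unadjusted p under 0.05). Ifnar2 was at 62.3, 96.6 and 79.1 TPM with anti-PD1, below both IgG_Control libraries, and its log2 difference was -0.61 (95% interval -1.18 to -0.04, adjusted p = 0.608). Ifnar1 was at 48.7, 73.8 and 70.7 TPM against 89.3 and 98.0 TPM (log2 difference -0.55, adjusted p = 0.608). Ifnar1, Ifnar2 and Jak1 were below both IgG_Control libraries in all 3 anti-PD1 libraries, as were 15.8% of all genes. Replicate 1 of anti-PD1 had the lowest level of all 7 genes among these 5 libraries, with Jak2 at 22.9 TPM, together with the lowest leukocyte marker sum, 4907 TPM, and the largest mitochondrial share of TPM, 21.9%.

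Across the 18 libraries the genes most like each member were found by Pearson correlation of log2(TPM + 1) over 13152 genes, as a description over libraries that share their sample types. Ifngr1 was most like Itgal (r = 0.957), the leukocyte integrin αL, and Dpep2 (r = 0.951), and among the genes close to Ifnar2 was Trim25 (r = 0.943). Ifnar1 was most like Pdgfrb (r = 0.933), a receptor of fibroblasts and pericytes, and Pla2g15 (r = 0.910). Pdgfrb was also present in cultured cells, at 3.3 to 4.92 TPM, against 1.5 to 2.61 TPM in sorted cells and 5.99 to 8.46 TPM in bulk tumors. Ifngr2 was most like Arl11 (r = 0.836) and Mlkl (r = 0.826). Jak2 was most like Znfx1 (r = 0.920) and Ctsc (r = 0.906), Jak1 like Ap2b1 (r = 0.947) and Scaf11 (r = 0.904), and Tyk2 like Git2 (r = 0.833) and Lpcat1 (r = 0.815). Among the members themselves the highest correlations were Ifnar1 with Jak2 (r = 0.829) and Ifngr1 with Ifnar2 (r = 0.799), and the lowest was Ifnar2 with Jak1 (r = -0.425).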

How the data were processed

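RNA was sequenced as poly(A) libraries with a directional kit, single-end. The authors trimmed reads with Cutadapt 2.3, aligned them with STAR 2.7.0d to mm10 (Ensembl 84 models) and estimated expression with RSEM 1.3.1; the versions are from the submitters' processing notes. The deposited table holds TPM, estimated by the authors per gene and scaled to the same total in each library, so counts and depth cannot be read from it, and the authors' DESeq2 test on estimated counts was replaced by limma.

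Values were tested as log2(TPM + 1) with limma 3.58.1 (R 4.3.3; lmFit, eBayes with trend), 2-sided, over genes averaging 1 TPM or more, with Benjamini-Hochberg adjustment over all of them. A call needed 1.5-fold or more and an adjusted p under 0.05. A fold is on the TPM + 1 scale. Guide effects were fitted within a sample type (6 libraries, 3 groups), sample types and differences between effects over 18 libraries in 9 groups, each type as the mean of its 3 guide groups, and anti-PD1 against IgG_Control over 5 libraries. Ratios of (TPM + 1) were tested by exact permutation (scipy 1.17.1). The scripts were tested on simulated data with known changes.

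The named genes are the 7 members, Nr2f6, pathway lists, cell type markers, and for each member its 2 most correlated genes. From a list, called genes and up to 3 others are named. Some genes that meet this rule are not reported here. The members and lists were chosen with earlier results of these data known. Alternatives were other scalings, pseudocounts, filters and fits, single libraries left out, and the replicate number as a block. Within a sample type, same-numbered libraries of different guide groups did not deviate together (correlations of deviations -0.126 to 0.051). Whether the numbers pair libraries across sample types, such as bulk tumors and sorted cells, was not checked. Where a symbol had several entries, that of the highest mean was used. Gene positions are from GENCODE M21 and promoters from RefSeq, both GRCm38.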

Additional observations from a re-analysis of the deposited data

Results flagged for a closer look

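The effect of sg495 on Ifngr1 differed between sample types in a test of the difference itself. It was 0.77 higher on the log2 scale in bulk tumors than in sorted cells (limma adjusted p = 0.0365). That comparison was added after the values were seen, with both sg495 libraries above both controls in bulk tumors and below both in sorted cells. The effect was 0.54 higher in bulk tumors than in cultured cells (adjusted p = 0.0414), where the sg495 libraries overlapped the controls. Both adjusted p values passed 0.05 in a minority of the alternatives. Groups of 2 or 3 libraries were too small for a test of single stray libraries.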

How the results depend on the processing

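The call of Ifngr1 in bulk tumors against cultured cells kept its direction and side of the threshold in every alternative run, and so did the absence of called members for each guide within a sample type and for anti-PD1. Without the 1.5-fold requirement, 5 members passed in each of the 3 comparisons of sample types, and 1 (Ifngr1) for the sg495 effect in bulk tumors minus cultured cells. The 2 members called in bulk tumors against cultured cells became 1, Ifngr1, with median-of-ratios scaling, with control libraries alone, without the sg492 libraries and with Gm21970 added to Ifnar2 (the last 2 chosen after seeing the data), and 1 to 2 without single libraries, where Ifnar2 fell as low as 0.54 on the log2 scale without cultured control replicate 2. The 1 member called in bulk tumors against sorted cells became 0 with control libraries alone and stayed at 1 to 1 without single libraries. The cause was not tested.

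The 1 member whose sg495 effect differed between bulk tumors and sorted cells became 0 with median-of-ratios scaling (Ifngr1 0.69, adjusted p = 0.0661) and was 0 to 1 without single libraries, with the highest adjusted p, 0.155, without bulk sg495 replicate 2 and 0.123 without sorted control replicate 2. With the replicate number as a block it also became 0 (adjusted p = 0.0601), while no other count of called members changed. Within a sample type the numbers showed no pairing, and pairing across sample types was not checked. Bulk control and sg492 gave the only correlation below -0.1, and with these numbers crossed 0 members were called for either guide in bulk tumors.

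Without single libraries, the log2 ratio of Ifngr1 to Ifngr2 ranged from 0.31 to 0.44 for sorted minus cultured cells and from 0.35 to 0.51 for bulk tumors minus sorted cells, and Jak1 to Tyk2 from -0.23 to -0.14 for bulk tumors minus sorted cells, each losing significance in some fits. Jak1 to Jak2 for sorted minus cultured cells, 0.0012 with all libraries, ranged from -0.048 to 0.040 and changed sign at -0.0097, -0.0043, -0.010, -0.022, -0.048 and -0.0021. With 2 libraries a group, changes smaller than the intervals given could not be resolved.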
